A study of Homo sapiens with 18 samples.

Results

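The 10 genes described here are the 7 transcription factors known as the stem cell heptad (RUNX1, GATA2, TAL1, LYL1, LMO2, ERG and FLI1) with MYB, GFI1B and CD34. They were chosen by symbol, and each symbol matched 1 Ensembl gene ID among the 40184 of the deposited table. RNA came from 18 cultures. They belong to 3 human acute myeloid leukaemia lines kept for 24 h in DMSO, the solvent control, or in 500 nM RMC-4550, which holds the phosphatase SHP2 in its inactive form. The 6 groups of 3 biological replicates were Molm-14 (FLT3-ITD, a duplicated stretch within the receptor kinase FLT3) with DMSO or RMC-4550, MV4-11 (FLT3-ITD) with DMSO or RMC-4550, and SKNO-1 (KIT N822K, a point mutation of another receptor kinase) with DMSO or RMC-4550. The labels give GM-CSF at 10 ng/mL in the medium of SKNO-1 alone, so that line, receptor mutation and growth factor cannot be told apart. Each line stands for 1 established culture, and a difference between lines is a difference between those cultures.

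The heptad factors bind DNA together at the regulatory elements of blood stem and progenitor cells. RUNX1 is a runt-domain protein, GATA2 a zinc-finger protein, FLI1 and ERG are ETS proteins, and TAL1 and LYL1 are helix-loop-helix proteins that LMO2, which does not itself bind DNA, links to the others. MYB keeps progenitors dividing, GFI1B is a repressor that acts in the erythroid and megakaryocytic lineages, and CD34 is a surface protein by which stem and progenitor cells are sorted.

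Recovered read totals ran from 17434810 to 19959917 per library. Levels are given in CPM, the reads of a gene relative to its library's size after the authors' scaling. Mitochondrial genes took 10.5% to 15.0% of the reads in 4 libraries (Molm-14 RMC-4550 replicate 2, MV4-11 DMSO replicates 1 and 3, and MV4-11 RMC-4550 replicate 1) and 5.07% to 7.02% in the other 14. MV4-11 with DMSO lay between the other lines for 49.7% of the 12386 genes at 1 CPM or more in each line, against 27.6% for SKNO-1 and 22.7% for Molm-14. Of 9261 genes at 10 CPM or more in Molm-14, SKNO-1 had 69 below 1% of the Molm-14 value, and MV4-11 had 0. In the reverse direction, 61 of 9416 genes at 10 CPM or more in MV4-11 were below 1% of that value in Molm-14. Whether the MV4-11 libraries hold only the cells that their labels name was not tested, and every value given for MV4-11 carries that limit. Leaving out the 4 libraries of high mitochondrial share leaves 1 MV4-11 DMSO library, and its tests then assume that it varies like the other groups. The 6 myeloid markers summed to between 1125 and 1612 CPM in each library, the 3 T cell markers to at most 0.0928 CPM, and CDH5 (endothelial), EPCAM (epithelial) and PF4 (platelet) each had at most 2 reads in any library. Summed B cell markers ran from 8.03 to 20.8 CPM and endothelial markers from 106 to 221 CPM, the latter carried by PECAM1. The list that holds PF4, of erythroid and megakaryocyte genes, was expressed. With DMSO it summed to 29.8 to 34.0 CPM in Molm-14, 57.6 to 67.7 CPM in MV4-11 and 58.0 to 62.5 CPM in SKNO-1. The keratins KRT8 and KRT18, tested as epithelial markers, rose in Molm-14 with RMC-4550, where the list summed to 17.3 to 19.3 CPM with DMSO and 25.6 to 38.4 CPM with the drug, and KRT8 rose in SKNO-1. The B cell factor PAX5 fell in Molm-14 and rose in SKNO-1 with RMC-4550. The part of these markers in the members' changes was not tested.

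MYB and GATA2 were the members that passed the test with a negative change on RMC-4550, and the 250 bases before their start sites are shown for that reason. They were taken from RefSeq on GRCh38.p14, where 8 of the 10 members had an entry, and LMO2 and FLI1 had none. Both strands were searched for 5 short motifs, and capitals mark the matches. For RUNX the letters searched were TGTGGT. For GATA factors they were AGATAA. For ETS proteins they were CCGGAA. The E-box of helix-loop-helix proteins was searched as CANNTG. For MYB the letters were AACNG.
MYB, chr6:135181058-135181307, + strand: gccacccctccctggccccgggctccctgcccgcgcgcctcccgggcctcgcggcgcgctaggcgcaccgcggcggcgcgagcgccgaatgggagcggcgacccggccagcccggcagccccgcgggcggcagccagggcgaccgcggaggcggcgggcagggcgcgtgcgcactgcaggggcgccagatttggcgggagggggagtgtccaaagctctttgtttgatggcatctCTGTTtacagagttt
GATA2 upstream start, chr3:128493202-128493451, - strand: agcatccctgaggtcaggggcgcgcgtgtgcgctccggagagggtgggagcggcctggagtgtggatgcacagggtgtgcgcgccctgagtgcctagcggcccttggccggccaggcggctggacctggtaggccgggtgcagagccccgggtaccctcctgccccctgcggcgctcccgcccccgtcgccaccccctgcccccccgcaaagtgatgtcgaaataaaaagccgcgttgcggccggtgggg
GATA2 downstream start, chr3:128488531-128488780, - strand: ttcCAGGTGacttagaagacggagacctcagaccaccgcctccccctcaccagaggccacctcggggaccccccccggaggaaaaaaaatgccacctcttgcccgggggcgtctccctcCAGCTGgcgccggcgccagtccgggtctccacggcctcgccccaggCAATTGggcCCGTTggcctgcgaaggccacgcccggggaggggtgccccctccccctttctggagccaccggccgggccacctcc

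The MYB window held 1 match, to the MYB letters, 15 bases before the start site. The upstream GATA2 window held 0 matches, and the downstream one held 3 E-boxes and 1 match to the MYB letters, and these did not overlap one another. In 1 ERG window an E-box and a match to the MYB letters overlapped, and 2 of the ERG windows overlap each other. Their shared stretch holds matches to the GATA letters, the MYB letters and the E-box, so the counts of windows below include the same sites in both. Over the 14 windows of the 8 members, 9 held an E-box, 9 the MYB letters, 3 the GATA letters, 2 the ETS letters and 1 the RUNX letters, and the last was a TAL1 window with 3 copies. Among 35116 promoter windows of the same length the shares were 61.8%, 70.6%, 9.17%, 14.5% and 11.0%. These matches describe letters and were not tested against the expression values.

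RUNX1 (chromosome 21, 34787801 to 36004667, - strand, GRCh38) was at 249.5, 251 and 259 CPM in the Molm-14 DMSO libraries, at 284, 323 and 279 CPM in MV4-11 and at 305, 324 and 321 CPM in SKNO-1. The MV4-11 and SKNO-1 values overlapped, and the Molm-14 values lay below both. SKNO-1 exceeded Molm-14 by a log2 difference of 0.32 (SE 0.11, limma adjusted p 0.0131). Molm-14 was below MV4-11 by -0.22 with an adjusted p of 0.0901, and without the 4 libraries of high mitochondrial share that difference was -0.35 with an adjusted p of 0.00103, from 1 MV4-11 library. Adjusting for mitochondrial share gave -0.41 (adjusted p 1.11e-05), and with quantile normalization -0.34 (0.00261). Leaving out Molm-14 RMC-4550 replicate 2 alone, which changes only the shared spread, gave an adjusted p of 0.0275. SKNO-1 is known for a fusion of RUNX1 with RUNX1T1, and the DMSO libraries of SKNO-1 held RUNX1T1 at 13.8 ± 0.61 CPM (SD, n = 3). Every library of the other lines had at most 1 RUNX1T1 read. How many RUNX1 reads in SKNO-1 came from the fusion was not tested.

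FLI1 (chromosome 11, 128686535 to 128813267, + strand) stood at 249, 244 and 239 CPM in Molm-14, at 138, 185 and 146 CPM in MV4-11 and at 178, 168 and 157 CPM in SKNO-1, all with DMSO. Molm-14 was the highest line for this ETS factor, with no overlap with either of the others. The log2 difference was 0.65 (SE 0.12, adjusted p 0.000379) against MV4-11, and SKNO-1 was lower than Molm-14 by -0.54 (SE 0.12, adjusted p 0.00105). The difference from MV4-11 was 0.42 after adjusting for mitochondrial share, and 0.40 against the 1 MV4-11 library of low share. MV4-11 and SKNO-1 overlapped, with a difference of 0.11 (95% interval -0.15 to 0.37). The antisense gene SENCR, which overlaps FLI1 exons, had 31 to 154 reads per library against 2445 to 4573 for FLI1. MYB-AS1, over MYB, had 0 to 25 reads per library. Whether strand was used in counting is not given in the sources used here, so reads of such pairs cannot be told apart.

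ERG (chromosome 21, 38380027 to 38661780, - strand), the other ETS factor, was at 8.17, 6.65 and 6.92 CPM in SKNO-1 with DMSO, from 145 to 177 reads per library. It had 0 reads in each Molm-14 library and 0 or 1 in each MV4-11 library. Set against a floor of 3 reads per library, ERG was at least 42.9-fold higher in SKNO-1 than in Molm-14. Its ratio to MV4-11, where the 3 DMSO libraries held 1 read in all, was 398 (95% counting interval 71.0 to 15736). ERG passed the filter on low values through SKNO-1 alone, so its call in these comparisons was fixed by the filter. Such bounds and intervals cover counting error only, since reads amplified without molecular identifiers are not independent molecules.

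GATA2 (chromosome 3, 128479427 to 128493185, - strand) was at 13.4, 13.1 and 14.1 CPM in SKNO-1 with DMSO. In Molm-14 it was at 3.61, 3.58 and 3.57 CPM, and in MV4-11 at 2.58, 2.76 and 2.15 CPM. The lines were thus ordered without overlap. SKNO-1 exceeded Molm-14 by a log2 difference of 1.91 and MV4-11 by 2.43 (SE 0.13 for each, adjusted p 2.70e-09 and 6.29e-10). Molm-14 exceeded MV4-11 by 0.52 (SE 0.13, adjusted p 0.00413). Without the 4 libraries of high mitochondrial share, and so against 1 MV4-11 library, the difference was 0.37 with an adjusted p of 0.0779, and with quantile normalization it was 0.95. The antisense gene GATA2-AS1, which shares no exon with GATA2, was lowest in SKNO-1, at 1.05 ± 0.20 CPM (SD, n = 3). With DMSO it was at 6.79 ± 0.92 CPM in MV4-11 and 8.22 ± 0.21 CPM in Molm-14. Its difference for Molm-14 minus MV4-11 was 0.28, with a limma adjusted p of 0.325.

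TAL1 (chromosome 1, 47216290 to 47232220, - strand) was near its limit of detection, with 18 to 33 reads per library in SKNO-1 with DMSO, 0 to 3 in Molm-14 and 1 to 4 in MV4-11. The SKNO-1 level was 1.19 ± 0.35 CPM (SD, n = 3). Its ratio to the Molm-14 level was 10.6 (95% counting interval 4.64 to 29.7) and its ratio to MV4-11 was 9.32 (4.32 to 24.0). TAL1 did not reach 1 CPM in 3 DMSO libraries and was not tested between lines.

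The related factor LYL1 (chromosome 19, 13099033 to 13103161, - strand) was expressed in all 3 lines, at 55.6, 63.6 and 66.6 CPM in Molm-14, 70.7, 63.4 and 70.1 CPM in MV4-11 and 81.8, 81.4 and 90.1 CPM in SKNO-1. SKNO-1 was above both other lines without overlap. Its log2 difference was 0.45 (SE 0.09, adjusted p 0.000520) against Molm-14 and 0.31 (SE 0.09, adjusted p 0.0150) against MV4-11. The MV4-11 difference missed the threshold without SKNO-1 DMSO replicate 3 (0.26, adjusted p 0.0694) and with quantile normalization (0.26, adjusted p 0.0544). Molm-14 and MV4-11 overlapped and differed by -0.14 (95% interval -0.34 to 0.06), a difference that passed with quantile normalization (-0.29, adjusted p 0.0276).

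LMO2 (chromosome 11, 33858576 to 33892289, - strand), the bridging protein, was at 162, 163 and 169.9 CPM in Molm-14, 264, 218 and 285 CPM in MV4-11 and 188, 192 and 196 CPM in SKNO-1. MV4-11 was highest, above Molm-14 by 0.62 on the log2 scale (-0.62 for Molm-14 minus MV4-11, SE 0.10, adjusted p 9.02e-05). SKNO-1 was lower than MV4-11 by -0.41 (SE 0.10, adjusted p 0.00453). Against the 1 MV4-11 library of low mitochondrial share these differences were smaller, -0.40 for Molm-14 and -0.19 for SKNO-1 (adjusted p 0.0193), and with the share as a covariate the second was -0.21. SKNO-1 and Molm-14 did not overlap, but their difference of 0.22 (95% interval 0.0023 to 0.43) had an adjusted p of 0.0706. That difference passed without the 4 libraries of high mitochondrial share, with an adjusted p of 0.000175, and with the share as a covariate (0.000720), a replicate block (0.0474), median-ratio scaling (0.0382) or a fit of those groups alone (0.000137). It also passed without MV4-11 DMSO replicate 2 (0.0314) or MV4-11 RMC-4550 replicate 1 (0.0431), which enter only the shared spread.

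MYB (chromosome 6, 135181315 to 135219173, + strand) was at 209.6, 204 and 216 CPM in Molm-14, 328, 322 and 326 CPM in MV4-11 and 302, 294 and 300.1 CPM in SKNO-1. Molm-14 was the lowest line. It was below MV4-11 by -0.63 (SE 0.10, adjusted p 5.09e-05), and SKNO-1 was above Molm-14 by 0.51 (SE 0.10, adjusted p 0.000216). MV4-11 and SKNO-1 did not overlap, yet their difference of -0.12 (95% interval -0.33 to 0.08) did not pass the test. After adjustment for mitochondrial share as a covariate the value was -0.27, with an adjusted p of 0.00875.

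CD34 (chromosome 1, 207880972 to 207911402, - strand) and GFI1B (chromosome 9, 132944000 to 132991687, + strand) were at background. CD34 summed to 14 reads over the 18 libraries and GFI1B to 29, with at most 4 in any library of either. A count of 0 allowed up to 0.192 CPM in the smallest library, and the highest value of either gene in a library was 0.226 CPM. GFI1B exons overlap those of TSC1 on the other strand, which had 1025 to 1586 reads per library, so reads of the 2 genes cannot be told apart there if strand was not used.

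**Figure D1:**
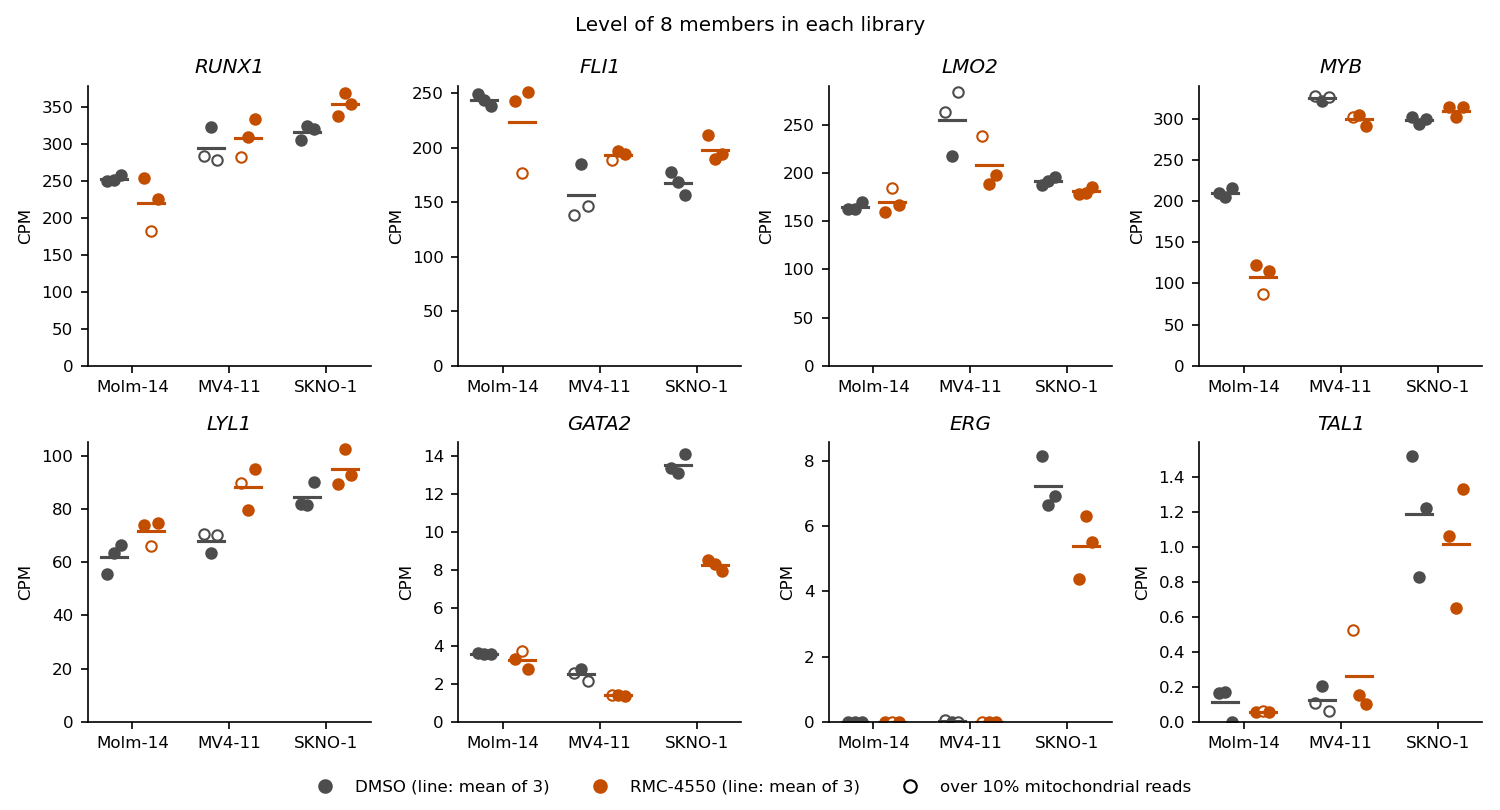
Level in CPM (vertical axis, from 0) of 8 members in each of the 18 libraries, grouped by line, with DMSO in grey and RMC-4550 in orange. Short lines are means of 3 libraries, and open circles are the 4 libraries with over 10% mitochondrial reads. MYB in Molm-14 with RMC-4550 lies below the DMSO libraries, at 86.7 to 122.5 CPM, and ERG has 0 or 1 read outside SKNO-1.

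ERG is left out of the counts between lines, since the filter fixed its call against Molm-14 and MV4-11. Of the other members, 6 were tested for SKNO-1 against Molm-14 with DMSO, of which 4 (LYL1, MYB, RUNX1 and GATA2) were higher and 1 (FLI1) was lower in SKNO-1. Over all 14793 genes tested, 31.8% were higher and 33.6% lower. Against MV4-11, 6 were tested, of which 2 (LYL1 and GATA2) were higher and 1 (LMO2) lower in SKNO-1, beside 20.1% and 22.4% of all 14748 genes. For Molm-14 against MV4-11, 6 were tested, of which 2 (FLI1 and GATA2) were higher and 2 (MYB and LMO2) lower in Molm-14, beside 29.1% and 25.1% of 14472 genes. The medians of these members were 0.39, 0.11 and -0.18 on the log2 scale, against -0.03, 0.02 and 0.08 over all genes tested, and they cover only members that passed the filter.

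To compare genes within a line, CPM were divided by the length in kilobases of the longest coding transcript in GENCODE 29. LMO2 ranked first in each line with DMSO, at 72.0 ± 1.8 CPM per kilobase (SD, n = 3) in Molm-14, 83.6 ± 1.7 in SKNO-1 and 111 ± 15 in MV4-11. MYB followed at 88.6 ± 0.78 in MV4-11 and at 81.3 ± 1.2 in SKNO-1, where the replicates of LMO2 and MYB overlapped. In Molm-14 the second place was shared by FLI1 at 58.8 ± 1.3 and MYB at 57.2 ± 1.6, whose replicates overlapped. LYL1 came next by group mean in each line, at 56.7 ± 3.3 in SKNO-1, 45.7 ± 2.7 in MV4-11 and 41.6 ± 3.8 in Molm-14. RUNX1 had group means of 34.8 to 43.5 CPM per kilobase. In MV4-11 the replicates of LYL1, RUNX1 and FLI1 all overlapped one another, so their order there is not settled. GATA2 reached 4.01 ± 0.15 in SKNO-1 and 0.742 ± 0.093 in MV4-11. The transcripts that the cells use were not measured, so the order holds for these lengths only.

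With RMC-4550, MYB fell in Molm-14, GATA2 fell in MV4-11 and SKNO-1, and LYL1 rose in MV4-11. The test of the difference between responses was passed by MYB in both comparisons made, and by GATA2 for Molm-14 against MV4-11. It was not passed by GATA2 for SKNO-1 against the mean of the other lines (-0.23, adjusted p 0.636). LYL1 did not pass it either, for Molm-14 against MV4-11 (-0.16, 95% interval -0.44 to 0.12, adjusted p 0.383) or for SKNO-1 against that mean (-0.12, 95% interval -0.37 to 0.12, adjusted p 0.777).

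In Molm-14, MYB went from 209.6, 204 and 216 CPM with DMSO to 122.5, 86.7 and 115 CPM with RMC-4550. The groups did not overlap, and the level with the drug was 50.9% of that with DMSO. The log2 change was -0.98 (SE 0.10, adjusted p 1.07e-06). Replicate 2, the library with 15.0% mitochondrial reads, was the lowest of the 3, and the change without it was -0.82.

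In the other lines MYB was at 302, 304 and 291 CPM with RMC-4550 in MV4-11, a change of -0.12 (95% interval -0.33 to 0.08), and at 314, 302 and 314 CPM in SKNO-1, a change of 0.05 (95% interval -0.15 to 0.26). Neither passed the test in the fit over all groups, although all 3 drug libraries were below the DMSO libraries in MV4-11 and above them in SKNO-1. With the mitochondrial share as a covariate the MV4-11 change was -0.20 and passed (limma adjusted p 0.0308). The Molm-14 change differed from the MV4-11 change by -0.85 (SE 0.14, adjusted p 0.000870 by the interaction test in limma). The SKNO-1 change exceeded the mean change of the FLT3-ITD lines by 0.60 (SE 0.12, adjusted p 0.00837).

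GATA2 in MV4-11 went from 2.58, 2.76 and 2.15 CPM to 1.43, 1.42 and 1.37 CPM, or from 36 to 54 reads per library to 27 or 28. The change was -0.81 (SE 0.13, adjusted p 0.000661), and the groups did not overlap. Comparing only libraries of low mitochondrial share gave -0.97 (2 against 1 library) and only those of high share -0.72 (1 against 2). On log2(CPM + 1) the change was -0.54. In a fit of the MV4-11 libraries alone the change of -0.81 had an adjusted p of 0.0848.

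In SKNO-1, GATA2 went from 13.4, 13.1 and 14.1 CPM to 8.51, 8.30 and 7.95 CPM. No library overlapped between the groups, and the level with the drug was 61.2% of that with DMSO. The change was -0.71 (SE 0.13, adjusted p 0.000968), and it was called under each alternative tried. Molm-14 showed 3.33, 3.72 and 2.77 CPM with RMC-4550, overlapping its DMSO libraries, and a change of -0.14 (95% interval -0.43 to 0.15). The difference between the Molm-14 and MV4-11 changes was 0.67 (SE 0.19, adjusted p 0.0256), and 0.43 on log2(CPM + 1). This call was lost without the filter on low values (adjusted p 0.0716), with quantile normalization (0.102) and in a fit of those groups alone (0.107). It was also lost without Molm-14 DMSO replicate 2 or 3, Molm-14 RMC-4550 replicate 2, MV4-11 DMSO replicate 1, or MV4-11 RMC-4550 replicate 2 or 3, with adjusted p of 0.0506 to 0.0624.

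LYL1 in MV4-11 went from 70.7, 63.4 and 70.1 CPM to 89.8, 79.6 and 95.002 CPM. All 3 drug libraries were above all 3 DMSO libraries. The change was 0.37 (SE 0.09, adjusted p 0.0146), or 129% of the DMSO level. It missed the threshold without RMC-4550 replicate 3 (0.32, adjusted p 0.0812) and in a fit of the MV4-11 libraries alone (adjusted p 0.143). The SKNO-1 change of LYL1 was 0.17 (adjusted p 0.207) and the Molm-14 change 0.21 (adjusted p 0.0770), and neither passed in the fit over all groups. In a limma fit of the SKNO-1 libraries alone the SKNO-1 change passed, with an adjusted p of 0.0347. Without the 4 libraries of high mitochondrial share the Molm-14 change was 0.27, with an adjusted p of 0.0140.

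**Figure D2:**
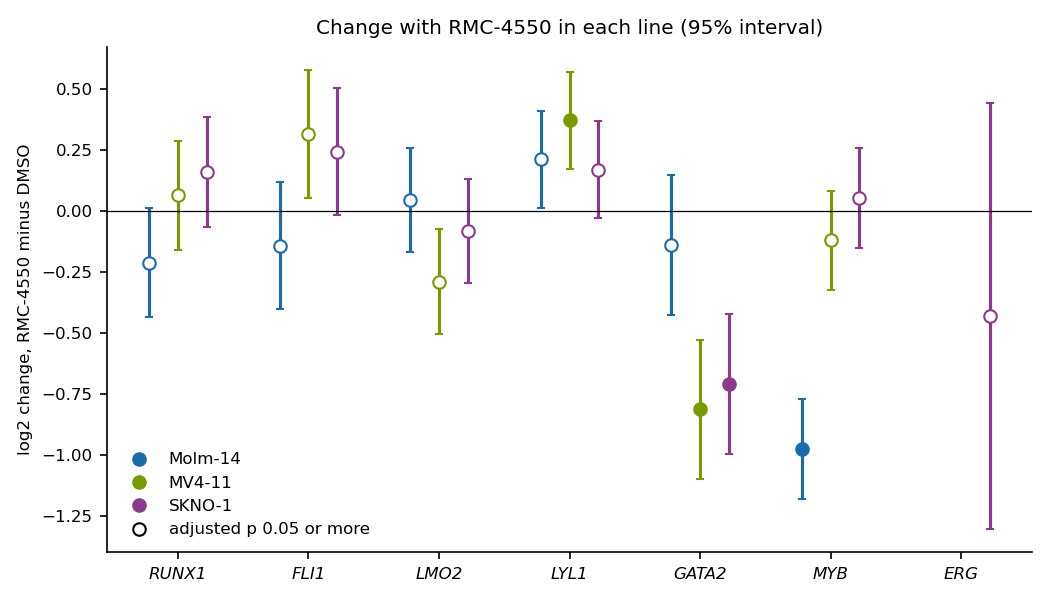
Log2 change with RMC-4550 (vertical axis) for 7 members in each line where they were tested, with the 95% interval as a bar and filled points for an adjusted p under 0.05. TAL1, tested in SKNO-1 alone, is not drawn. The filled points are MYB in Molm-14 at -0.98, GATA2 in MV4-11 at -0.81 and in SKNO-1 at -0.71, and LYL1 in MV4-11 at 0.37.

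Of the 10 members, 6 were tested in Molm-14, of which 0 were higher and 1 lower, beside 21.5% and 25.2% of 13971 genes. None of the 5 heptad factors among them was called by limma there, and 1 (LYL1) had an unadjusted p under 0.05. In MV4-11, 6 were tested, 1 higher and 1 lower, beside 5.85% and 8.03% of 14739 genes. SKNO-1 had 8 tested, 0 higher and 1 lower, beside 10.8% and 16.2% of 14670 genes. The members' medians were -0.14, -0.03 and -0.01, against -0.06, -0.01 and -0.05 over all genes tested. For the differences between responses, 1 of 8 members was called for SKNO-1 against the mean of the other lines, beside 3.34% of 16262 genes, and 2 of 6 for Molm-14 against MV4-11, beside 17.2% of 15495 genes. The 8 include ERG and TAL1, which passed the filter through SKNO-1 alone. In the other lines ERG had 0 or 1 read per library and TAL1 0 to 10, so their responses there cannot be measured. The medians leave out the members that were not tested, which include CD34 and GFI1B in every line.

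None of the remaining changes passed the test in the fit over all groups. RUNX1 went from 305, 324 and 321 CPM to 338.5, 369 and 354 CPM in SKNO-1, with no overlap and a change of 0.16 (SE 0.11, adjusted p 0.291). FLI1 in the same line went from 178, 168 and 157 CPM to 212, 189 and 194 CPM, also with no overlap, a change of 0.24 (SE 0.12, adjusted p 0.164). Without the 4 libraries of high mitochondrial share, none of which is from SKNO-1, the adjusted p at the same changes was 0.0178 for RUNX1 and 0.000994 for FLI1. In a fit of the SKNO-1 libraries alone it was 0.0161 and 0.00247.

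ERG in SKNO-1 was at 4.40, 6.31 and 5.52 CPM with RMC-4550, each below the lowest DMSO library at 6.65 CPM. Its change was -0.43 (SE 0.41, 95% interval -1.31 to 0.44, adjusted p 0.487) in the fit over all groups, where libraries at 0 or 1 read share the spread. On log2(CPM + 1) it was -0.37 with an adjusted p of 0.0142, in a fit of SKNO-1 alone the adjusted p was 0.0127, and with voom weights on the recovered reads it was 0.0244. TAL1 in SKNO-1 was at 1.06, 0.650 and 1.33 CPM with the drug, overlapping its DMSO values, with a change of -0.24 (95% interval -1.71 to 1.23).

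LMO2 in MV4-11 went from 264, 218 and 285 CPM to 239, 189 and 198 CPM, which overlap, with a change of -0.29 (SE 0.10, adjusted p 0.0694). It passed without MV4-11 DMSO replicate 2 (-0.40, adjusted p 0.00841), MV4-11 RMC-4550 replicate 1 (-0.39, 0.0165) or Molm-14 RMC-4550 replicate 2 (0.0447). Adjusting for mitochondrial share gave a smaller change of -0.18, which passed (adjusted p 0.0227), and among the low-share libraries, 2 against 1, it was -0.17 (adjusted p 0.0526). The 3 MV4-11 libraries of high mitochondrial share were the 3 highest for LMO2. In Molm-14, LMO2 changed by 0.04 (95% interval -0.17 to 0.26), and in SKNO-1 by -0.08 (95% interval -0.29 to 0.13).

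For FLI1 the low libraries of MV4-11 with DMSO and of Molm-14 with RMC-4550 were those of high mitochondrial share. MV4-11 RMC-4550 replicate 1, also of high share, was at 189 CPM, above the DMSO library of low share at 185 CPM. In MV4-11 it went from 138, 185 and 146 CPM to 189, 197 and 195 CPM, a change of 0.32 (SE 0.12, adjusted p 0.109), and the DMSO libraries at 138 and 146 CPM are those of high share. Among the low-share libraries alone, 2 against 1, the change was 0.081. The change passed without MV4-11 DMSO replicate 2 (0.44, adjusted p 0.0169) or Molm-14 RMC-4550 replicate 2 (0.0255). In Molm-14 the change was -0.14 (SE 0.12, adjusted p 0.354), with 243, 177 and 251 CPM, and it was 0.018 without replicate 2, the high-share library at 177 CPM. RUNX1 showed 254, 182 and 225 CPM in the same Molm-14 libraries, a change of -0.21 (SE 0.11, adjusted p 0.108), and -0.081 without replicate 2. Without replicate 1 it was -0.32, with an adjusted p of 0.0185. In MV4-11, RUNX1 was at 282, 309.7 and 334 CPM with the drug and changed by 0.06 (95% interval -0.16 to 0.29). Beyond these values, the part of the mitochondrial share in the results was not tested.

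**Figure D3:**
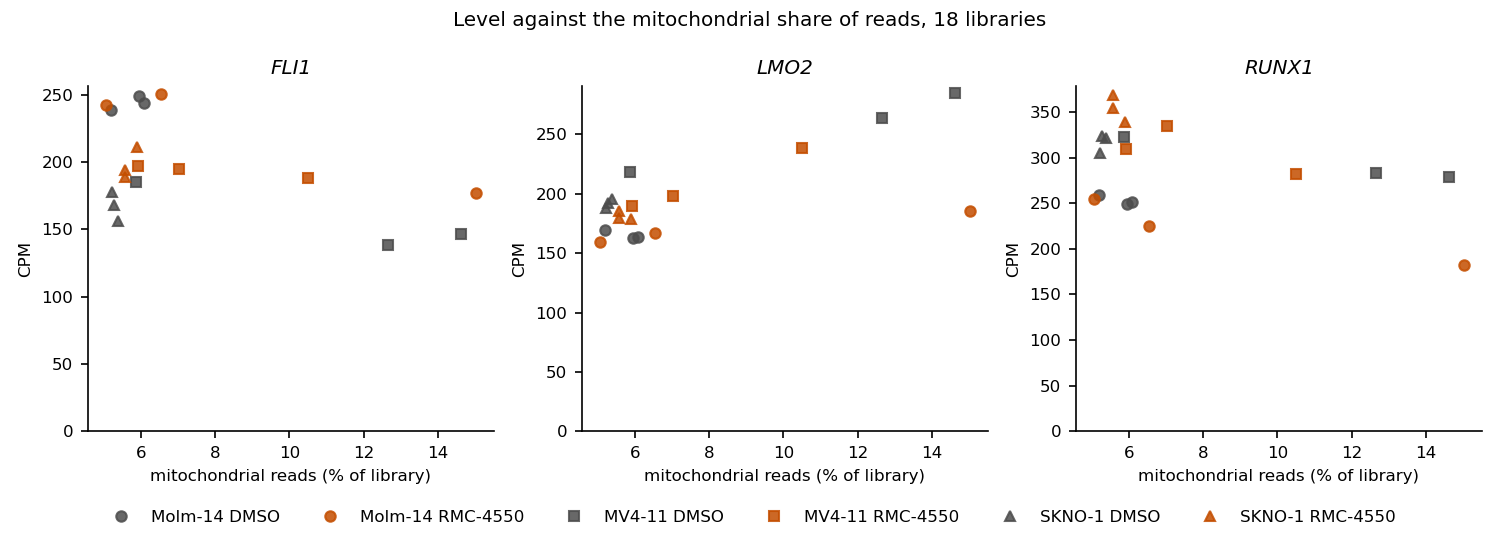
Level in CPM (vertical axis, from 0) of FLI1, LMO2 and RUNX1 against the mitochondrial share of reads in percent (horizontal axis), 1 point per library, with symbols for the line and colours for the treatment. In MV4-11 the libraries over 10% are the highest for LMO2, at 239 to 285 CPM, and 2 of them are the lowest for FLI1, at 138 and 146 CPM.

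A list of partners of these factors held 17 genes, among them LDB1, which joins LMO2 complexes, its single-stranded DNA-binding stabilisers, the E proteins that pair with TAL1 and LYL1, CBFB, which pairs with RUNX1, and co-repressors. It was drawn up with earlier results of these data known, and 16 of its genes were tested in each line. RMC-4550 raised 5 and lowered 4 of them in Molm-14, raised 0 and lowered 3 in MV4-11, and raised 2 and lowered 4 in SKNO-1. Over all genes tested, 21.5% were higher and 25.2% lower in Molm-14, 5.85% and 8.03% in MV4-11, and 10.8% and 16.2% in SKNO-1. The list's median changes were 0.13, -0.05 and -0.20 in the same order. Of the 5 higher genes in Molm-14, LMO4 (0.22) lost its call under 14 of 27 alternatives, with 0.14 without replicate 2 of the drug group.

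CBFB, the partner that stabilises RUNX1 on DNA, fell in all 3 lines. It went from 83.0 ± 1.9 to 61.2 ± 5.4 CPM in Molm-14, from 81.7 ± 6.1 to 55.6 ± 6.2 in MV4-11 and from 54.0 ± 0.36 to 36.1 ± 3.3 in SKNO-1 (SD, n = 3). The changes were -0.44, -0.56 and -0.58 (SE 0.10 for each, adjusted p 0.00141, 0.000890 and 0.000278). In Molm-14 quantile normalization took the adjusted p to 0.0611, and in MV4-11 a fit of that line alone took it to 0.0559.

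LDB1, named after its values were seen, rose by 0.61 (SE 0.10, adjusted p 0.000106) in Molm-14, from 179 ± 3.6 to 275 ± 39 CPM. In SKNO-1 the change was -0.075 (adjusted p 0.623) and in MV4-11 it was 0.26 (0.0869), and neither passed. ID2, an inhibitor of E proteins, rose by 1.02 (SE 0.20, adjusted p 0.000592) in Molm-14. RCOR1, a scaffold of the co-repressor that GFI1B recruits, fell there by 0.97 on the log2 scale (SE 0.24, adjusted p 0.00411), and by 0.64 without replicate 2 of the drug group.

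TCF4, an E protein, fell in Molm-14 by 0.86 on the log2 scale (SE 0.16, adjusted p 0.000477), from 4.19 ± 1.3 to 2.25 ± 0.39 CPM. In SKNO-1 it rose by 0.93 (SE 0.16, with the same adjusted p), from 22.6 ± 0.45 to 43.3 ± 5.0 CPM. ID1, another inhibitor of E proteins, fell in SKNO-1 (-0.77, SE 0.26, adjusted p 0.0361), and it missed the threshold when any 1 SKNO-1 library was left out, with an adjusted p of up to 0.116. LMO4, a relative of LMO2, fell in MV4-11 (-0.47, adjusted p 0.00142), and CBFA2T2, a co-repressor related to RUNX1T1, had called changes in SKNO-1 (-0.35, adjusted p 0.00182, and -0.22 with quantile normalization) and MV4-11 (-0.25, adjusted p 0.0265). In a fit of the MV4-11 libraries alone the LMO4 and CBFA2T2 calls were lost there (adjusted p 0.0564 and 0.291). The CBFA2T2 call was also lost without MV4-11 DMSO replicate 1 or 2 or RMC-4550 replicate 1 or 3, with adjusted p of up to 0.0940.

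Other stem and progenitor factors made a list of 20 genes, of which 14 were tested in SKNO-1 and 12 in each of the other lines. The drug raised 3 and lowered 4 in Molm-14, and raised 3 and lowered 2 in each of the other lines. All genes tested were higher and lower in shares of 21.5% and 25.2% in Molm-14, 5.85% and 8.03% in MV4-11, and 10.8% and 16.2% in SKNO-1. SKNO-1 had a median change of 0.10, MV4-11 of 0.049 and Molm-14 of -0.066. The 3 genes called higher were RUNX3, NFE2 and MSI2 in every line.

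RUNX3, a runt-domain relative of RUNX1, rose from 49.5 ± 2.0 to 199.6 ± 2.2 CPM in Molm-14 (SD, n = 3), a log2 change of 2.01 (SE 0.07, adjusted p 2.21e-11). With DMSO it was already at 177 ± 2.5 CPM in MV4-11 and 274 ± 11 CPM in SKNO-1. The changes there were 0.43 (SE 0.07, adjusted p 0.000471) and 0.22 (SE 0.07, adjusted p 0.0220). In SKNO-1 the call was lost when DMSO replicate 1 or RMC-4550 replicate 2 or 3 was left out, with adjusted p of up to 0.0987, and without the filter on low values (adjusted p 0.106). NFE2, an erythroid and megakaryocytic factor, rose by 0.72, 0.70 and 1.27 (SE 0.08 for each), and MSI2, an RNA-binding protein of stem cells, by 0.45, 0.35 and 0.61 (SE 0.09 for each). The MSI2 call in MV4-11 was lost without DMSO replicate 3 or RMC-4550 replicate 2 or 3 (adjusted p of up to 0.106), and in a fit of that line alone (0.171). So was the RUNX3 call in MV4-11 in such a fit (0.0659).

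MYBL1, a relative of MYB, fell in Molm-14 (-0.81, SE 0.22, adjusted p 0.00681), and the SKNO-1 change of -1.25 also passed (adjusted p 0.000519). Its change in MV4-11 was -0.67 (adjusted p 0.0537). HHEX, a homeobox factor of early progenitors, fell by 0.62 on the log2 scale in Molm-14 (SE 0.09, adjusted p 3.61e-05). Its MV4-11 change of -0.28 had an adjusted p of 0.0397 and was called under 13 of 27 alternatives, and it was lost without any 1 MV4-11 library but DMSO replicate 3, and without 5 libraries of the other lines. HMGA2, a chromatin protein of proliferating progenitors, fell in MV4-11 (-0.75, SE 0.14, adjusted p 0.00155). It also fell in SKNO-1 (-1.53, SE 0.14, adjusted p 7.26e-07), where its level was 2.91 ± 0.25 CPM with DMSO and 1.00 ± 0.22 CPM with the drug, and the change on log2(CPM + 1) was -0.97.

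**Figure D4:**
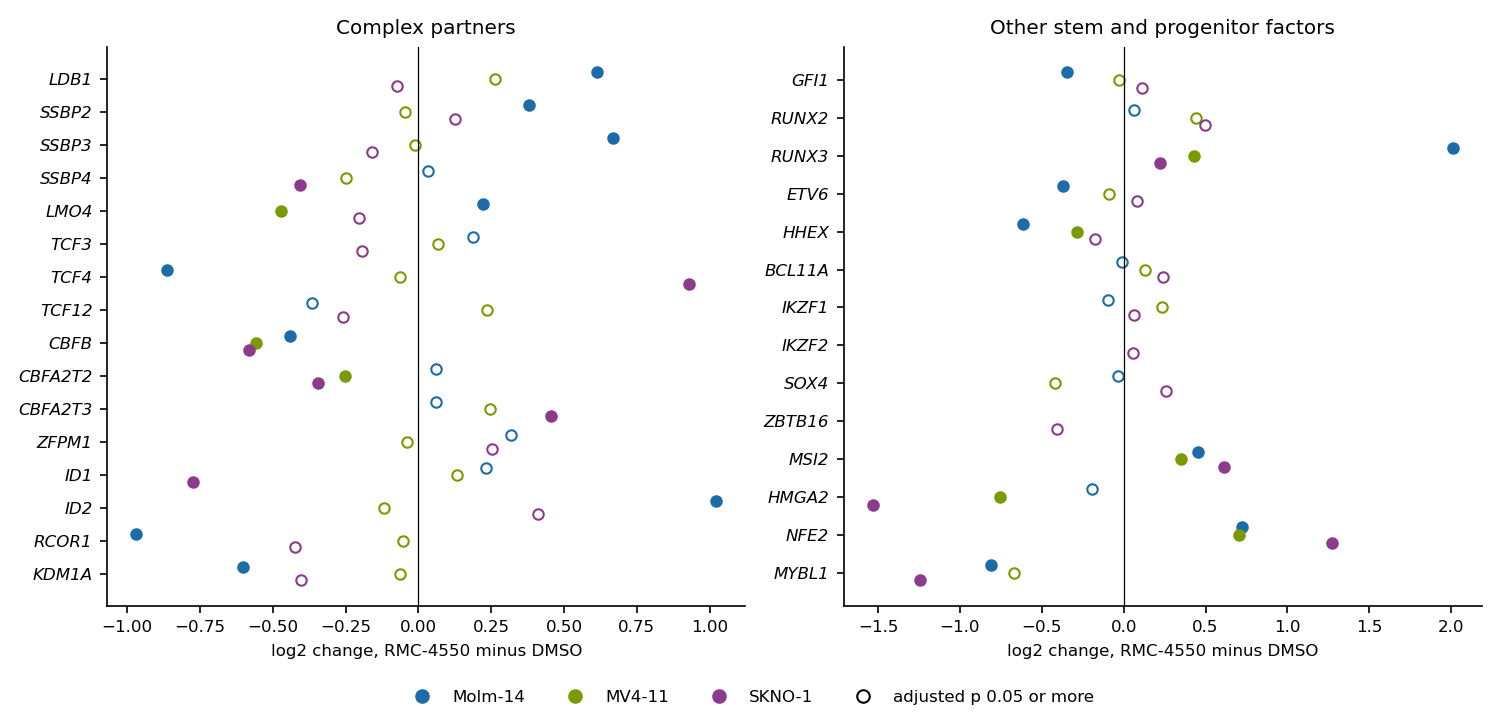
Log2 change with RMC-4550 (horizontal axis) of the genes tested in at least 1 line from the partner list (left) and the list of other stem and progenitor factors (right), coloured by line, with filled points for an adjusted p under 0.05. CBFB is filled and negative in all 3 lines, and RUNX3, NFE2 and MSI2 are filled and positive in all 3.

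The LSC17 genes, a published expression score of leukaemic stem cells that includes CD34, had 16 of 17 genes in the table, with 9, 10 and 13 tested. Of these, 4 rose and 3 fell in Molm-14, 2 rose and 1 fell in MV4-11, and 2 rose and 5 fell in SKNO-1. The shares over all genes were 21.5% higher and 25.2% lower in Molm-14, 5.85% and 8.03% in MV4-11, and 10.8% and 16.2% in SKNO-1. The medians were -0.13, 0.14 and -0.12. DNMT3B, a DNA methyltransferase, fell in all 3 lines (-0.63, -1.10 and -0.62, SE 0.10 for each), and SOCS2, a feedback inhibitor of cytokine signalling, rose in all 3 (0.28, 0.50 and 0.44, SE 0.08 for each). In a fit of Molm-14 alone the SOCS2 call was lost (adjusted p 0.0718). LAPTM4B, a lysosomal membrane protein, fell in Molm-14 (-1.31, SE 0.35, adjusted p 0.00582), and in SKNO-1 its change was -1.61 (adjusted p 0.00261). In Molm-14 the change was -0.87 without replicate 2 of the drug group. CPXM1 fell in Molm-14 (-1.14, SE 0.20, adjusted p 0.000280). Its SKNO-1 change of -0.64 also passed, and was called under 22 of 27 alternatives. In MV4-11 its change of -0.50 did not pass.

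Of 11 stem and progenitor surface genes, 9 were in the table and 4, 5 and 5 were tested. Here 1 rose and 3 fell in Molm-14, 2 rose in MV4-11 and 1 fell in SKNO-1, beside 21.5% higher and 25.2% lower of all genes in Molm-14, 5.85% higher in MV4-11 and 16.2% lower in SKNO-1. The medians were -0.55, 0.39 and -0.12. CD38, which marks progenitors past the stem cell stage, fell in Molm-14 from 7.18 ± 0.56 to 2.89 ± 1.1 CPM (-1.38, SE 0.22, adjusted p 0.000103). It rose in MV4-11 (0.74, SE 0.22, adjusted p 0.0325), a call that was lost without DMSO replicate 1 or 3 or RMC-4550 replicate 2 or 3, with adjusted p of up to 0.145. Among the libraries of low mitochondrial share, 2 against 1, the change was 0.46, and it was 0.45 with that share as a covariate. ITGA6, an integrin subunit, rose in Molm-14 (0.70, SE 0.17, adjusted p 0.00312), with 0.63 in MV4-11 (0.0201). The Molm-14 call was lost with quantile normalization (0.41, adjusted p 0.0881). The MV4-11 call was lost in a fit of that line alone (0.212) and without DMSO replicate 1 or RMC-4550 replicate 2 or 3 (up to 0.108). ENG, a co-receptor of the TGF-beta family, fell in Molm-14 (-0.48, SE 0.11, adjusted p 0.00218, and -0.31 with quantile normalization), with a change of -0.51 in SKNO-1 that also passed. PROCR, the endothelial protein C receptor, fell in Molm-14 (-0.61, SE 0.17, adjusted p 0.00945), a call that was lost in a fit of that line alone (0.0525).

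Lineage genes were set beside the members because GATA2, TAL1 and GFI1B also act in erythroid and megakaryocytic cells. Of 8 such genes in the table, EPOR alone was called with RMC-4550, in SKNO-1 (-0.40, SE 0.12, adjusted p 0.0177), where 4 were tested. Limma called 0 of the 2 tested in Molm-14 and 0 of the 5 in MV4-11, where 0 and 1 had an unadjusted p under 0.05. Of the 6 myeloid markers, SPI1 (0.48, adjusted p 0.0446) and CSF3R (0.97, adjusted p 0.000336) rose and MPO fell (-1.36, adjusted p 0.0165) in Molm-14, and CSF3R rose in SKNO-1 (0.51, adjusted p 0.0411). In MV4-11 limma called 0 of 6, and 0 had an unadjusted p under 0.05. Shares over all genes tested were 21.5% higher and 25.2% lower in Molm-14, 5.85% and 8.03% in MV4-11, and 10.8% and 16.2% in SKNO-1. These lineage genes were named after their values were seen, and their part in the members' changes was not tested.

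As a description of which genes followed the members, Pearson's r of the log2 values was taken over the 18 samples for 11013 or 11014 genes with a mean of 5 CPM or more. The samples fall into 6 groups from 3 lines, and r includes the differences between them. MYB was most like BID and CEP170B (r 0.96 for each), and GATA2 most like LOX and ATP7B (0.93 for each). RUNX1 was followed by DELE1 (0.98) and SMAD7 (0.97), FLI1 by ZNF277 and PPP2R5A (0.94 for each), and ERG by PRAME and WDR11 (0.98 for each). LYL1 was closest to TICAM1 (0.93) and ITPK1 (0.92), LMO2 to LINC00926 and PRR13 (0.95 for each), and TAL1 to TBC1D32 (0.92) and ROBO1 (0.90). ERG had at most 3 reads in 12 of the 18 libraries and TAL1 in 10, all outside SKNO-1. Their r values therefore describe mainly the difference between SKNO-1 and the other lines.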

How the data were processed

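Per the labels' protocols, libraries were made from poly(A) RNA, amplified by PCR and read as DNA nanoballs, 18 in all (6 groups of 3). The submitters' processing notes name FastQC, STAR, limma and GRCh38. The counter, annotation release and use of strand are not given in the sources used here. The authors deposited 1 table of log2 values for 40184 Ensembl gene IDs, and symbols matched 40069 of them. From the values, each is the log2 CPM of a scaled library after 0.5 was added to the reads (scaling factors 0.890 to 1.11). Undoing this gave whole reads, within 0.02, for 100% of values under 200 reads in each sample. CPM are those reads over the scaled library.

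Tests used limma 3.58.1 in R 4.3.3 (lmFit, eBayes with trend, two-sided) on the deposited values, in 1 fit of the 18 samples with a coefficient per group. Genes needed 1 CPM in 3 samples of the fit and of the groups contrasted. Benjamini-Hochberg adjustment ran over all genes tested in a contrast, with calls at an adjusted p under 0.05. The scripts were tested on simulated data. Precision is lowest for genes of few reads.

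Members and gene lists were chosen with earlier results of these data known. Beyond the members, the genes named were, per list, up to 4 called with 1 sign in every line and up to 2 more per line with the largest change among genes with a group mean of 5 CPM or more. Lists named here were complex partners, other stem and progenitor factors, LSC17, surface genes, and lineage markers (erythroid and megakaryocytic, myeloid, T cell, B cell, endothelial, epithelial). Alternatives were log2(CPM + 1), no low-value filter, median-ratio scaling, quantile normalization, fits of the contrasted groups alone, a replicate block, the mitochondrial share (23 genes) as a covariate, omission of the 4 libraries above 10%, omission of each library, and voom weights, the last chosen after seeing the data. Positions are from GENCODE 29. Figures used matplotlib 3.10.9 in Python 3.11.15.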

Additional observations from a re-analysis of the deposited data

Results flagged for a closer look

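The responses of 2 members differed between lines by the interaction test in limma. For MYB the change with RMC-4550 in Molm-14 minus that in MV4-11 was -0.85 (SE 0.14, adjusted p 0.000870), from changes of -0.98 and -0.12, with all 3 drug libraries below all 3 DMSO libraries in both lines. The MYB change in SKNO-1 exceeded the mean change of Molm-14 and MV4-11 by 0.60 (SE 0.12, adjusted p 0.00837). Its own change in SKNO-1 was 0.05, beside -0.98 in Molm-14 and -0.12 in MV4-11, and no test set SKNO-1 against either line alone. For GATA2 the change in Molm-14 minus that in MV4-11 was 0.67 (SE 0.19, adjusted p 0.0256), from changes of -0.14 and -0.81, and it is the least stable of the 3 over the alternatives tried.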

How the results depend on the processing

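The MYB change in Molm-14 was called under all 27 alternatives (-1.07 to -0.82), as was that of GATA2 in SKNO-1 (-0.73 to -0.65), and MYB was called in both differences of response under each. Counts of members called moved as follows. They were not set against the share of all genes called under the same setting, so they show nothing particular to the members. In Molm-14 (1 in the main analysis) the count was 2 with median-ratio scaling, with the mitochondrial covariate and without the libraries above 10%, each adding LYL1, and 3 with quantile normalization (LYL1 and GATA2), with 1 to 2 over single omitted libraries (without RMC-4550 replicate 1 RUNX1, without replicate 2 LYL1). In MV4-11 (2) it was 0 in a limma fit of that line alone, where 2 had an unadjusted p under 0.05, and 4 with the covariate (LYL1, GATA2, LMO2 and MYB). Single omitted libraries gave 1 to 4: 4 without Molm-14 RMC-4550 replicate 2 or MV4-11 DMSO replicate 2 (LMO2 and FLI1 added), 1 without MV4-11 RMC-4550 replicate 3. In SKNO-1 (1) it was 2 with log2(CPM + 1), with voom weights (ERG in both) and with quantile normalization (FLI1), 3 with the covariate and without the libraries above 10% (FLI1 and RUNX1), and 5 in a fit of that line alone. Counts for SKNO-1 against either line with DMSO include ERG here, although the filter fixed its call. For SKNO-1 against MV4-11 with DMSO (4) single omissions gave 2 to 4, and the 2 arose without SKNO-1 DMSO replicate 3, where ERG fails the filter by construction. There quantile normalization lost LYL1 and the covariate added MYB. For Molm-14 against MV4-11 with DMSO (4), RUNX1 was added by quantile normalization (6, with LYL1), the covariate and omission of Molm-14 RMC-4550 replicate 2 (5 each), and without the libraries above 10% RUNX1 took the place of GATA2 (4). For SKNO-1 against Molm-14 (6), LMO2 was added with median-ratio scaling, the covariate, a fit of those groups alone and without the libraries above 10% (7 each). Without a filter TAL1 was added against both lines. For the SKNO-1 response set against the other lines' mean (1) the covariate gave 2 (RUNX1 added). For Molm-14 against MV4-11 (2) it was 1 without a filter, with quantile normalization and in a fit of those groups alone, and single omissions gave 1 to 4, with 4 without MV4-11 DMSO replicate 2.

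The signs that turned belong to differences that were not called in the main analysis. With RMC-4550 in Molm-14, FLI1 was 0.018 without the libraries above 10%, and -0.23 to 0.018 over single omissions; LMO2 was -0.062 with the covariate, -0.016 without those libraries, and -0.016 to 0.091 over single omissions. RUNX1 in MV4-11 was -0.054 and -0.0058 under the same pair of settings. TAL1 in SKNO-1 ran from -0.48 to 0.043 over single omissions. For SKNO-1 against MV4-11 with DMSO, FLI1 was -0.15 and -0.15, and RUNX1 -0.11 and -0.028, under that pair. In the SKNO-1 response set against the other lines' mean, ERG ran from -0.40 to 0.012 over single omissions and TAL1 was 0.22 without the libraries above 10%. The cause was not tested.

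Same-numbered DMSO and RMC-4550 libraries did not regularly deviate together (r -0.40 to 0.59 over 9 pairs, and 6 of 18 libraries were closest to their own number), so numbers were not taken as pairs. In MV4-11, r was 0.39 for replicate 1 and 0.59 for replicate 2, but -0.40 for replicate 3. With the replicate block, 1, 2 and 1 members were called with RMC-4550 (the lines in the order above), 7, 4 and 4 between lines (LMO2 added for SKNO-1 against Molm-14), and 1 and 2 between responses. Of 45 called changes of other genes named, 29 held under all 27 alternatives and 16 were lost under at least 1, none with a change of sign. Depth limits GATA2, ERG and TAL1 most. For CD34 and GFI1B, at no more than 4 reads or 0.226 CPM in any library, no statement is possible beyond a level at background.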
